A study of Mus musculus with 6 samples.

Results

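Genes of the Hippo pathway and of its effectors YAP and TAZ, 10 in all, were followed in ureteric bud cells of E15.5 mouse kidneys, in Dicer mutant cells set against control cells. They were taken by name as the kinase genes Lats1 and Lats2, the coactivator genes Yap1 and Wwtr1, the DNA-binding partner genes Tead1 and Tead2, and the target genes Ccn2, Ankrd1, Ccn1 and Amotl2. All 10 were measured among 19296 genes that had a probe set carrying a single gene symbol, and a gene with several probe sets was represented by the one with the highest mean over the 6 arrays. Ccn2 was formerly called Ctgf, and Ccn1 was formerly Cyr61. The 3 mutant arrays held cells of genotype Dicerc/-; Hoxb7Cre; Rosa26YFP, in which the Hoxb7 promoter drives Cre in the ureteric bud against a floxed Dicer, opposite a null allele that every cell of the embryo carries. The 3 control arrays held cells labelled wild type. Both groups had a mixed strain background, came from kidneys dissected at E15.5, and were sorted by FACS for YFP after trypsin treatment. Wild-type cells have no YFP, and the labels do not say what the sorted controls carried, so Cre, the reporter and the Dicer genotype cannot be told apart. The replicates are called biological, with no word on pooling of embryos, so p-values reflect only the variation among these 6 samples.

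The Hippo pathway is a kinase cascade that restrains growth in epithelia. Its upstream kinases MST1 and MST2, with SAV1 and MOB1, activate LATS1 and LATS2, which phosphorylate YAP and its paralog TAZ (the product of Wwtr1) and keep them in the cytoplasm. Unphosphorylated YAP and TAZ enter the nucleus and switch on genes through the TEAD transcription factors, among them Ccn1, Ccn2, Ankrd1, Amotl2 and Lats2, of which the last feeds back on the pathway. The pathway is controlled largely by phosphorylation and localisation, which RNA arrays do not measure.

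Levels below are log2 values from RMA, a normalization that brings arrays to a common distribution. The array medians were 7.48 to 7.54, and arrays of a group correlated across probe sets at 0.996 to 0.998, arrays of different groups at 0.988 to 0.992 (Pearson's r). Dicer1, the targeted gene, was at 9.80, 9.72 and 9.64 in the mutant cells, against 10.31, 10.38 and 10.25 in control cells (log2 fold change -0.59, SE 0.06, adjusted p = 0.0005). That is 66.3% of the control level, and loss of the enzyme itself was not measured. Across the array, 2285 of 19296 genes (11.8%) were higher and 2690 (13.9%) lower in the mutant at an adjusted p of 0.05 in limma's test. Among the 9659 genes above the median brightness of all probe sets, 7.52, the shares were 19.3% higher and 20.3% lower. All 15 ureteric bud markers lay above that median, with means of 8.24 to 12.9, so the defining genes of the labelled cell type were among the brighter ones.

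Of the 10 genes, Ankrd1, Ccn2, Lats2 and Lats1 rose in the mutant cells, 0 fell in limma's test (1, Yap1, at an unadjusted p under 0.05), and Yap1, Wwtr1, Tead1, Tead2, Ccn1 and Amotl2 did not pass. The rises were 2.94-fold for Ankrd1, 2.16-fold for Ccn2, 1.46-fold for Lats2 and 1.18-fold for Lats1. The 40% that rose stands against 11.8% of all genes and 19.3% of genes above the median brightness, where 9 of the 10 lay. The 10 genes and the lists below were chosen with earlier results of these data known, so such shares are descriptions and not tests. The 10 had a median of 0.08 on the log2 scale, against a median log2 fold change of -0.05 over all genes and of -0.01 over genes above the median brightness. The 3 mutant and 3 control values did not overlap for 5 of the 10, namely the 4 that rose and Yap1, and this held for 42.5% of all genes. In bulk samples, more cells of one kind and more RNA per cell cannot be told apart.

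**Figure D1:**
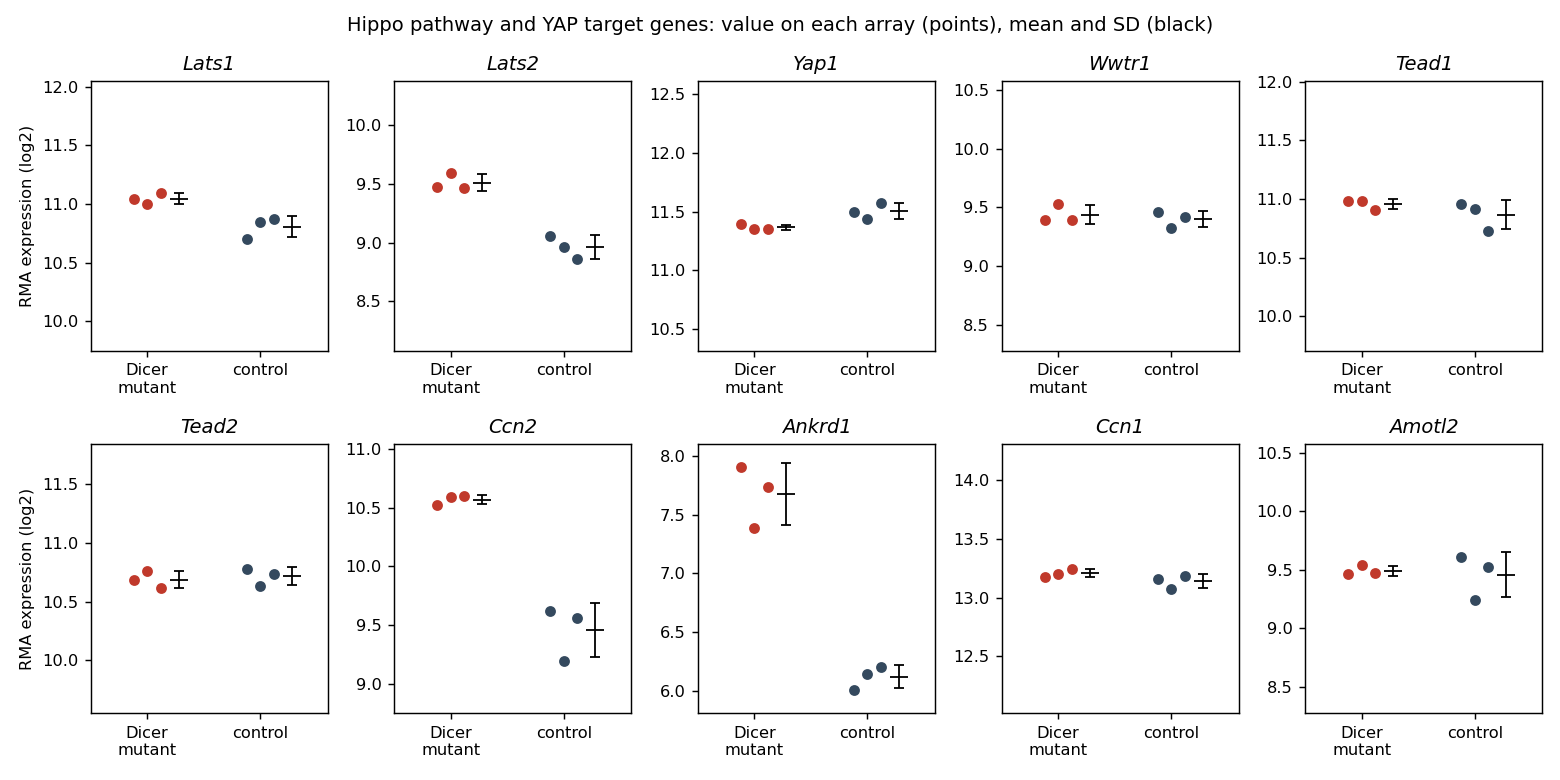
RMA expression on the log2 scale in the 3 Dicer mutant arrays (red, left) and 3 control arrays (dark blue, right), 1 panel for each gene, with the group mean and SD in black. Every panel spans the same log2 range. The groups are widest apart for Ankrd1 and Ccn2, and the control values of Ccn2 and Amotl2 are spread more than the mutant ones.

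The LATS kinases are the last step of the cascade before YAP and TAZ. Lats2, which is also a target of YAP, was at 9.48, 9.60 and 9.46 in the mutant cells, against 9.06, 8.97 and 8.86 in control cells. All 3 mutant arrays lay above all 3 control arrays. The group means were 9.51 ± 0.07 in mutant and 8.96 ± 0.10 in control cells (SD, n = 3 each), which is a difference of 0.55 log2 units with an SE of 0.07 (limma, adjusted p = 0.00114). The call was kept under each of the 15 alternatives, with log2 fold changes of 0.50 to 0.60.

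Lats1, its paralog, was at 11.05, 11.00 and 11.10 in the mutant cells, against 10.70, 10.84 and 10.87 in control cells. These groups did not overlap either, but the gap between the lowest mutant and the highest control array was small beside that of Lats2. The log2 fold change was 0.24 with an SE of 0.06 (limma, adjusted p = 0.028). That call depends on single arrays. It was kept without control replicate 3 (adjusted p = 0.0287) and lost when any other array was left out, with adjusted p-values of 0.0515 to 0.0937. The direction stayed positive throughout, with log2 fold changes of 0.19 to 0.27.

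Yap1 encodes the coactivator that the LATS kinases restrain. Its level was 11.39, 11.35 and 11.35 in the mutant cells, against 11.50, 11.43 and 11.57 in control cells. All 3 mutant values were below all 3 control values, by a narrow margin. The log2 fold change was -0.14 with a 95% interval of -0.27 to -0.0027, and it did not pass over all genes (limma, unadjusted p = 0.0464, adjusted p = 0.127). The same difference passed in a fit without dim genes (adjusted p = 0.047) and with a variance trend and robust eBayes (adjusted p = 0.0274), so Yap1 sits at the edge of the test.

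Wwtr1, the gene of TAZ, was at 9.39, 9.53 and 9.39 in the mutant cells, against 9.46, 9.32 and 9.42 in control cells. The groups overlapped and the log2 fold change was 0.04, with a 95% interval of -0.12 to 0.19 (limma, adjusted p = 0.714). In fold, the interval ran from 0.923 to 1.14.

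The TEAD proteins hold YAP and TAZ on DNA. Tead1 was at 10.98, 10.98 and 10.90 in the mutant cells, against 10.95, 10.92 and 10.73 in control cells, and the groups overlapped. Its log2 fold change was 0.09, with a 95% interval of -0.08 to 0.26 (limma, adjusted p = 0.409). Tead1 was the one gene of the 10 with 2 probe sets, and the dimmer of them (10556442) gave a log2 fold change of 0.04 with an SE of 0.06. Tead2 was at 10.69, 10.76 and 10.62 in the mutant cells, against 10.78, 10.63 and 10.74 in control cells. These values overlapped as well, with a log2 fold change of -0.03 and a 95% interval of -0.18 to 0.12 (limma, adjusted p = 0.759).

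Of the 4 target genes, Ankrd1 changed most. It encodes a nuclear ankyrin repeat protein first known from heart muscle and is a widely used readout of YAP activity. Its level was 7.90, 7.38 and 7.74 in the mutant cells, against 6.01, 6.15 and 6.20 in control cells. The lowest mutant array stood well above the highest control array, although the mutant arrays were spread more widely than the control ones. The means were 7.68 ± 0.27 in mutant and 6.12 ± 0.10 in control cells (SD, n = 3 each), which is a difference of 1.56 log2 units with an SE of 0.13 and a fold of 2.94 (95% interval 2.40 to 3.61; limma, adjusted p = 0.000152). By log2 fold change it ranked at place 42 from the highest of 19296 genes, and Ccn2 at place 102. The control values lay below the median brightness, and the table holds no detection call.

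Ccn2 encodes connective tissue growth factor, a secreted matricellular protein. Its level was 10.52, 10.59 and 10.60 in the mutant cells, against 9.62, 9.20 and 9.56 in control cells. The mutant arrays were close together and all above the controls, among which replicate 2 was lowest. The means were 10.57 ± 0.04 in mutant and 9.46 ± 0.23 in control cells (SD, n = 3 each), with a log2 fold change of 1.11, an SE of 0.11 and a fold of 2.16 (95% interval 1.82 to 2.57; limma, adjusted p = 0.000309). The call was kept under each of the 15 alternatives, and the log2 fold change ranged from 0.98, without control replicate 2, to 1.19.

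Ccn1, the nearest relative of Ccn2 among the 10, is also secreted into the matrix and is counted among both YAP targets and immediate early genes. It was at 13.18, 13.20 and 13.25 in the mutant cells, against 13.16, 13.08 and 13.19 in control cells. The groups overlapped and the log2 fold change was 0.07, with a 95% interval of -0.06 to 0.20 (limma, adjusted p = 0.416). Its mean lay at the 99.9 percentile of all genes, near the top of the scale. Amotl2 encodes a junctional scaffold of the angiomotin family that binds YAP and is itself a YAP target. It was at 9.46, 9.54 and 9.47 in the mutant cells, against 9.61, 9.25 and 9.53 in control cells. The mutant values fell inside the control range, and the log2 fold change was 0.03, with a 95% interval of -0.18 to 0.25 (limma, adjusted p = 0.819).

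**Figure D2:**
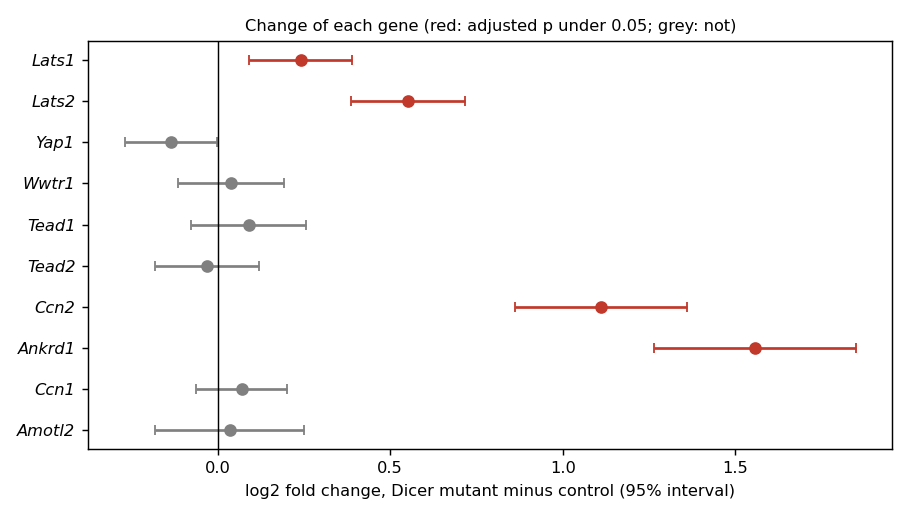
Log2 fold change of each gene, Dicer mutant minus control, with its 95% interval from limma. Red points passed an adjusted p of 0.05 and grey points did not. The intervals of Ankrd1, Ccn2, Lats2 and Lats1 lie above 0, that of Yap1 ends just below 0, and those of the other 5 genes span 0.

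The 4 target genes, all known from YAP and TEAD, moved unequally, and the promoters of those with a RefSeq entry are shown for that reason. TEAD proteins bind the motif GGAATG, which was searched on both strands from 250 bases before to 50 bases after each RefSeq gene start (build GRCm38.p6). A promoter was found for 8 of the 10 genes, all but Ccn2 and Tead1, at 10 starts. The motif was present at 7 of these 10 starts, in 6 genes, and in 14.7% of 32851 promoters of the same length. The Ankrd1 promoter held it at 2 positions, 210 and 123 bases before the start, and 1.36% of promoters held 2 or more. Ccn1 had a single match 103 bases before its start and Amotl2 one 65 bases before, both on the opposite strand. Below, the 250 bases before the start of the risen target Ankrd1 and of Ccn1 and Amotl2, which did not pass, are written 5′ to 3′ along the gene's strand, with the motif in capitals.
Ankrd1, chr19:36119845-36120094, minus strand: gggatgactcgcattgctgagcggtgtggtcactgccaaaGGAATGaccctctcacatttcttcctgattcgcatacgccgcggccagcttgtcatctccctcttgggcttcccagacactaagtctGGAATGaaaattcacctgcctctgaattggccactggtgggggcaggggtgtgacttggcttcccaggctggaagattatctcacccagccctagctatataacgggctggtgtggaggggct
Ccn1, chr3:145649986-145650235, minus strand: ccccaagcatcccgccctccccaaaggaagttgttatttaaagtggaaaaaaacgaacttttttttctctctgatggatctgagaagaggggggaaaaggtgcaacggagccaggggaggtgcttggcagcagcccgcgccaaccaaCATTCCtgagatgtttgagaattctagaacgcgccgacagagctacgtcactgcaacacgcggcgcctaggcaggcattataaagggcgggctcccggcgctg
Amotl2, chr9:102717554-102717803, plus strand: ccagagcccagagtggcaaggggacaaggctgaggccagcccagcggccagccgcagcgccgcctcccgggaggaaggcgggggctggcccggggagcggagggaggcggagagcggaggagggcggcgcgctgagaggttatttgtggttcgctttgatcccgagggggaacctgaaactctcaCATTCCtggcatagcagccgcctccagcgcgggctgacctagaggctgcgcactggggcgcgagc

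Yap1 held 1 match 141 bases before its start, and Wwtr1 held the same match in the windows of its 2 overlapping starts. Lats2 had a match at base 5 after one of its 2 starts, while the windows of Lats1 and Tead2 had none. The AP-1 motif TGANTCA, found in 7.81% of all promoters, and the CArG box bound by SRF, found in 1.63%, were in 0 of the 10 windows. GGAATG was therefore present in the promoters of genes that rose and of genes that did not pass. A match is a string of letters, and binding of any factor was not measured.

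**Figure D3:**
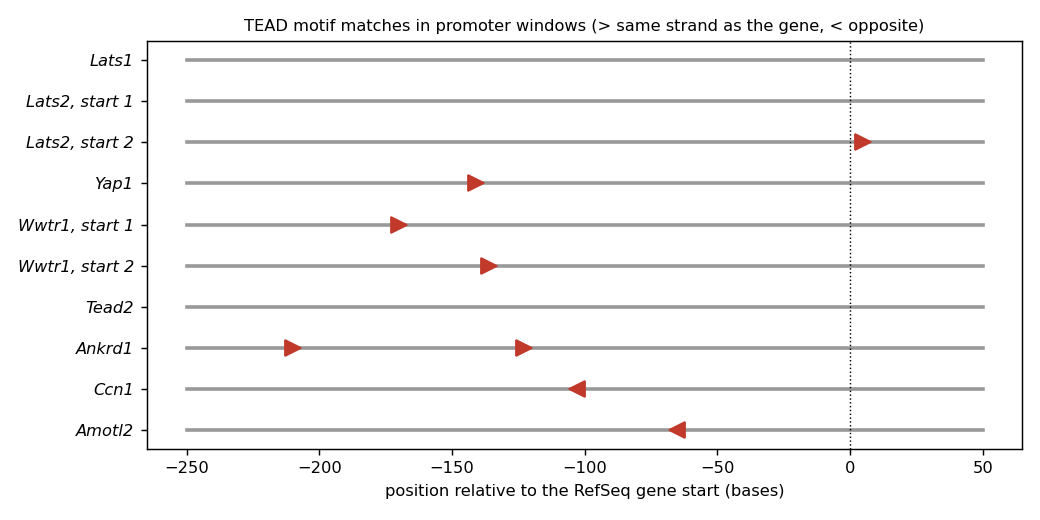
Positions of the TEAD motif in the RefSeq promoter windows of 8 genes, from 250 bases before to 50 bases after each start (dotted line). Arrowheads point right for the gene's own strand and left for the opposite strand. Ankrd1 has 2 matches, Ccn1 and Amotl2 have 1 each on the opposite strand, and Lats1 and Tead2 have none.

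DICER, the enzyme whose gene is floxed in the mutant, makes mature miRNAs, and several miRNAs are reported in the literature as repressors of these genes. For Ccn2 these include miR-18a and miR-19 of the miR-17 cluster and the miR-30 family, in rodent and human cells. For Lats2 they include miR-93, which shares its seed with miR-17 and miR-20a, and miR-31, and for Yap1 they include miR-141 and miR-200a, in both cases mainly from work in human cells. Their mature mouse sequences from RefSeq (GRCm38.p6) are given here grouped by gene, 5′ to 3′, with the seed, bases 2 to 8, in capitals.
miR-18a-5p: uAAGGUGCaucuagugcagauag
miR-19a-3p: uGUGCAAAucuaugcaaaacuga
miR-19b-3p: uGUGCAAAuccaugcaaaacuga
miR-30a-5p: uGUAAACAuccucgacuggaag
miR-30c-5p: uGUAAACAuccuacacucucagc
miR-17-5p: cAAAGUGCuuacagugcagguag
miR-20a-5p: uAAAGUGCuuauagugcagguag
miR-93-5p: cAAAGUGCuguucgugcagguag
miR-31-5p: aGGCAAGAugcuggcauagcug
miR-141-3p: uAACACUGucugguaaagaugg
miR-200a-3p: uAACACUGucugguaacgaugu

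The 11 sequences fall into 6 seeds: miR-19a with miR-19b, miR-30a with miR-30c, miR-17 with miR-20a and miR-93, miR-141 with miR-200a, and miR-18a and miR-31 each with its own. Ccn2 and Lats2 rose in the cells labelled Dicer mutant, and Yap1, with a log2 fold change of -0.14, did not. Mature miRNAs were not analysed here, and whether they have a part in these values was not tested.

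The changes of paralogs were also set against each other within each array. The log ratio of Ccn2 to Ccn1 was -2.66, -2.61 and -2.65 in the mutant cells, against -3.53, -3.88 and -3.63 in control cells, a shift of 1.04 that left the groups far apart. The mean of Ccn1 was 13.18, where the highest value on any array was 14.11. Whether a level so near the top limits its measured change was not tested. The log ratio of Lats1 to Lats2 was 1.57, 1.40 and 1.63 in the mutant cells, against 1.64, 1.88 and 2.01 in control cells. That shift of -0.31 has the direction of a larger rise of Lats2 than of Lats1, and the nearest arrays of the groups were almost level. The log ratio of Yap1 to Wwtr1 shifted by -0.17, with values of 1.82 to 2.00 in the mutant cells and 2.04 to 2.16 in control cells. For each of these 3 pairs the two-sided exact permutation test of 3 against 3 arrays gave p = 0.1, the smallest it can give, and 0.133 after adjustment over the 4 pairs. The ratio of Tead1 to Tead2 overlapped between the groups (shift 0.12, exact permutation p = 0.2). Such ratios compare changes and say nothing of which paralog is more abundant.

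**Figure D4:**
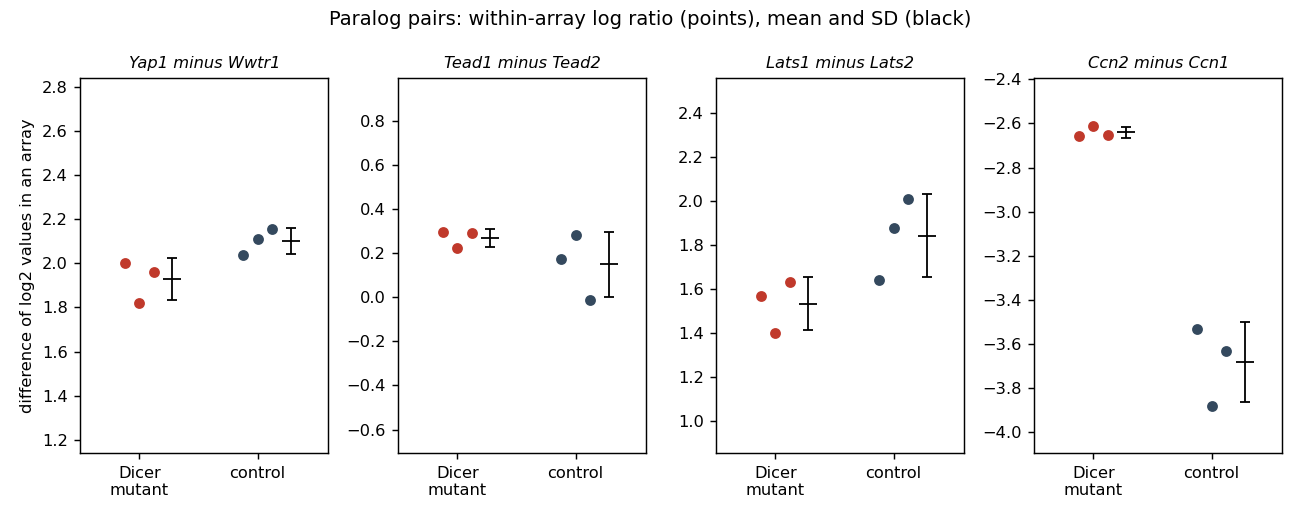
Difference of log2 values of 2 paralogs within each array, in the 3 Dicer mutant arrays (red, left) and 3 control arrays (dark blue, right), with mean and SD in black. Every panel spans the same log2 range. The groups are clearly apart for Ccn2 minus Ccn1, do not overlap for Yap1 minus Wwtr1 and Lats1 minus Lats2, and overlap for Tead1 minus Tead2.

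Spread within a group was also uneven. Control replicate 2 gave the lowest control value of Ccn2, Ccn1 and Amotl2, but Ankrd1 was lowest in control replicate 1 and Lats2 in control replicate 3. Control replicate 2 was the lowest control array for 46.4% of 28 other YAP target genes and for 30.8% of all genes. Mutant replicate 1 gave the lowest mutant value of Ccn2, Ccn1 and Amotl2, but Ankrd1 was lowest in mutant replicate 2 and Lats2 in mutant replicate 3. Mutant replicate 1 was the lowest mutant array for 50% of the 28 and for 37% of all genes. Among the 28, Thbs1, the gene of the matrix protein thrombospondin, was at 10.21, 10.15 and 10.48 in the mutant cells, against 10.34, 9.31 and 9.50 in control cells, and the groups overlapped. Myof, a membrane repair gene, was at 9.66, 9.69 and 9.77 in the mutant cells, against 9.16, 8.82 and 9.58 in control cells. Neither gene passed (limma, adjusted p = 0.13 for Thbs1 and 0.052 for Myof). Thbs1 passed without control replicate 1, its highest control array (adjusted p = 0.00256), and with array weights (0.0437). Myof passed without control replicate 3, its highest control array (adjusted p = 0.00313), and also without dim genes (0.0221), with array weights (0.0234), with the replicate block (0.0369) and after median centring (0.0423).

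The 5 genes whose profile over the 6 arrays lay nearest to that of Ccn2, by Euclidean distance after centring each gene on its own mean, were St6gal2, Golm1, Papss2, Pde8a and Parp12. Their distances were 0.183 to 0.249 log2 units and their log2 fold changes 1.01 to 1.11. St6gal2, a sialyltransferase gene, was at 8.20, 8.35 and 8.21 in the mutant cells, against 7.38, 7.04 and 7.25 in control cells, with replicate 2 lowest among the controls as for Ccn2. Among the 9 other pathway genes, Lats2 and Ankrd1 were nearest, at distances of 0.773 and 0.796. With 6 arrays in 2 groups, such likeness reflects mainly the size of the difference between the groups.

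The regulators upstream of and around the LATS kinases were followed as a list of 31 further genes, of which 29 were measured. Of these, 15 rose, 2 fell and 12 did not pass. The 51.7% that rose stands against 11.8% of all genes and 19.3% of those above the median brightness, where 26 of the 29 lay, and their median was 0.18 on the log2 scale. The measured genes of MST, SAV1 and MOB1, which act with the LATS kinases, were not among those that rose. Stk4, the gene of MST1, had a log2 fold change of 0.08, the scaffold Sav1 0.13, and the LATS coactivators Mob1a and Mob1b 0.12 and 0.13, with adjusted p-values of 0.13 to 0.307 in limma's test. Of these, Mob1b passed in a fit without dim genes (adjusted p = 0.0474) and with a variance trend (0.0424). Stk3, the gene of MST2, was not analysed here.

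Some kinases that can act on LATS or MST were among the risen genes and others of their families were not. Mink1 was at 9.87, 10.01 and 9.95 in the mutant cells, against 9.18, 9.13 and 9.16 in control cells, a log2 fold change of 0.79 (limma, adjusted p = 0.000107). Its relatives Map4k4, Map4k5 and Tnik had log2 fold changes of 0.34, 0.40 and 0.37, and Taok1, which activates MST, had 0.45. Stk38, a kinase of the same family as LATS, rose by 0.45 with no overlap between groups. Their relatives Taok2, Taok3 and Stk38l did not pass, with log2 fold changes of 0.0008, -0.14 and -0.07 (limma, adjusted p = 0.993, 0.199 and 0.341). The scaffolds Wwc1 and Wwc2, known as KIBRA proteins, rose by 0.26 and 0.41, and Frmd6, a membrane-associated activator, rose by 0.51. Nf2, the gene of merlin, which brings LATS to the membrane, was one of the 2 that fell. It was at 9.19, 9.15 and 9.06 in the mutant cells, against 9.31, 9.35 and 9.43 in control cells, a log2 fold change of -0.23 (limma, adjusted p = 0.0286). That call was kept without control replicate 1 and lost without any other array (adjusted p-values of 0.0524 to 0.0973).

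The largest changes on the list were those of the Fat4 and Dchs1 system, a pair of giant cadherins that bind each other across cell borders, and Fjx1, a Golgi kinase gene whose fly counterpart tunes their binding. Dchs1 was at 9.82, 9.92 and 9.81 in the mutant cells, against 8.87, 8.89 and 9.06 in control cells, a rise of 1.88-fold (limma, adjusted p = 0.000121). Fjx1 was at 9.75, 9.93 and 9.89 in the mutant cells, against 8.98, 8.87 and 8.85 in control cells, a rise of 1.94-fold (limma, adjusted p = 0.000102). Fat4 went the other way, at 6.63, 6.90 and 6.67 in the mutant cells, against 7.94, 7.55 and 7.71 in control cells, and was 2.00-fold lower (limma, adjusted p = 0.000553). None of the 3 genes had overlapping groups. Fat4 and Dchs1 are best known in the kidney from the stroma, and of 12 stromal markers 0 passed in limma's test (1, Tcf21, was lower at an unadjusted p under 0.05, with an adjusted p of 0.0628, and Postn, next by p, had 0.224). Over all genes, 11.8% were higher and 13.9% lower, but only 2 of the 12 markers lay above the median brightness, and dimmer genes were called less often. Fat4 also lay below that median. The summed signal of these markers was 1332 to 1448 in mutant and 1325 to 1504 in control cells, on the linear scale of the arrays. Whether stromal cells have a part in the values of Fat4 and Dchs1 was not tested.

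Genes of junctional YAP regulators were mixed, and those that rose did so by small amounts. Ptpn14, a phosphatase that retains YAP in the cytoplasm, rose by 0.32 on the log2 scale, and the LIM protein Ajuba, an inhibitor of LATS, by 0.36. Its relatives Limd1 and Wtip did not pass, with log2 fold changes of -0.04 and -0.08 (limma, adjusted p = 0.645 and 0.34). Amotl1 rose by 0.18, while its relative Amot had a log2 fold change of 0.17 (adjusted p = 0.128) and Amotl2, as given above, 0.03. The calls of Ajuba and Amotl1 depended on single arrays: Ajuba was lost without any mutant array or without control replicate 2 (adjusted p-values of 0.0519 to 0.0707), and Amotl1 without any array but control replicate 1 (0.0627 to 0.118). Ptpn14, Ajuba, Amotl1 and Fjx1 are counted among YAP targets too. Without these 4, 11 of 25 regulators rose and 2 fell.

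The remaining TEAD genes and the TEAD cofactors of the VGLL family moved in both directions. Of 6 measured, 3 fell, 1 rose and 2 did not pass, against 13.9% lower and 11.8% higher among all genes. Tead4 was at 6.88, 6.84 and 6.79 in the mutant cells, against 7.45, 7.23 and 7.16 in control cells, a log2 fold change of -0.44 (limma, adjusted p = 0.0059). Tead3 had a log2 fold change of -0.27 (adjusted p = 0.04), with values of 9.04 to 9.13 in mutant and 9.25 to 9.53 in control cells. Vgll3 fell by 0.42 on the log2 scale, and Vgll4, a repressor that competes with YAP for TEAD, rose by 0.25. Apart from Tead4 these calls rest on single arrays. Tead3 was not called after median centring (adjusted p = 0.0552) or without any array but control replicate 3 (0.0648 to 0.115). Vgll3 was not called without mutant replicate 2 or 3 (0.0609 and 0.0537), and Vgll4 not without mutant replicate 1 or 2 or control replicate 1 or 2 (0.0575 to 0.0713). Tead4 and Vgll3 lay below the median brightness.

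Other genes that are often read as YAP targets were followed in 28 measured members of a list of 30. Of these, 11 rose, 2 fell and 15 did not pass, with a median of 0.16 on the log2 scale. The share that rose, 39.3%, stands against 11.8% of all genes and 19.3% of those above the median brightness, where 19 of the 28 lay. Without the 4 genes shared with the regulators, 7 of 24 rose (29.2%) and the median was 0.03. At an adjusted p of 0.01, 7 of the 28 were higher.

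**Figure D5:**
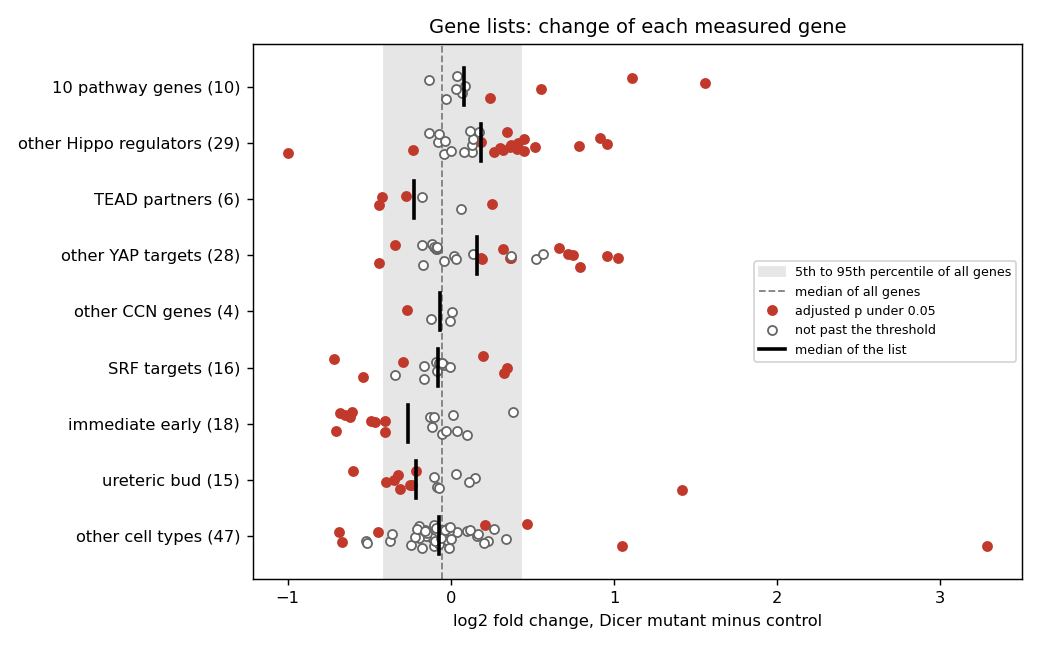
Log2 fold change of each measured gene, Dicer mutant minus control, in the 10 pathway genes and in 8 further gene lists, with the number measured in brackets. Filled red points passed an adjusted p of 0.05, open points did not, and black bars mark list medians. The median bars of the 10 pathway genes, other Hippo regulators and other YAP targets lie to the right of the median of all genes. The other bars lie to its left, furthest for the immediate early (-0.27), TEAD partner (-0.23) and ureteric bud (-0.22) lists.

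Asap1, an Arf GTPase activator, was at 10.19, 10.12 and 10.19 in the mutant cells, against 9.47, 9.46 and 9.41 in control cells, a rise of 1.64-fold (limma, adjusted p = 0.000108). Axl, a receptor tyrosine kinase, was at 9.25, 9.37 and 9.19 in the mutant cells, against 8.68, 8.54 and 8.60 in control cells, a rise of 1.58-fold. Edn1, the gene of the peptide endothelin, was at 7.96, 7.77 and 8.06 in the mutant cells, against 6.94, 6.70 and 7.08 in control cells, a rise of 2.03-fold. None of these groups overlapped. The coagulation initiator F3 rose by 0.79 on the log2 scale, the matrix protein gene Ccdc80 by 0.75 and the growth factor gene Tgfb2 by 0.37. The 2 that fell were Birc5, a mitotic survival gene, with a log2 fold change of -0.44, and Myc, with -0.34, and both act in many other settings. Myc was not called after median centring (adjusted p = 0.054) or without any mutant array or control replicate 2 (0.058 to 0.0997).

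Relatives of the target genes and other programmes that control them were followed in the same way. Of the 4 measured CCN genes beside Ccn1 and Ccn2, Ccn3 fell, with a log2 fold change of -0.27, and the other 3 did not pass, and all 4 lay below the median brightness. Over all genes, 13.9% were lower. Ccn3 was not called after quantile normalization (adjusted p = 0.137) or without mutant replicate 3 or control replicate 2 (0.0613 and 0.0644). Targets of SRF, which responds to actin and shares several genes with YAP, held as many calls in one direction as in the other. Of 16 measured, 3 rose (Flna, Tpm1 and Zyx, by 0.32, 0.34 and 0.20 on the log2 scale), 3 fell (Fhl1, Acta2 and Cnn1, by 0.54, 0.72 and 0.30) and 10 did not pass. The 18.8% in each direction is near the 19.3% higher and 20.3% lower of genes above the median brightness, where 11 of the 16 lay. Only the 3 that rose had a log2 fold change above 0, against 7384 of all 19296 genes, and the median was -0.08. Flna and Fhl1 were called with any array left out. Tpm1 was lost without mutant replicate 1 (adjusted p = 0.0515), Acta2 without mutant replicate 2 (0.0665), Zyx without any mutant array or control replicate 2 (0.0707 to 0.101), and Cnn1 without mutant replicate 1 or 3 or control replicate 1 or 2 (0.108 to 0.152).

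Immediate early genes, which respond to growth factors and to the dissociation of tissue, were lower or did not pass. Of 18 measured, 9 fell, 0 rose (1, Klf6, at an unadjusted p under 0.05) and 9 did not pass in limma's test, with a median log2 fold change of -0.27, against 20.3% lower among genes above the median brightness, where 17 of the 18 lay. Ier2 was at 9.82, 9.85 and 9.77 in the mutant cells, against 10.45, 10.28 and 10.57 in control cells. Egr1, Junb and Egr2 had log2 fold changes of -0.47, -0.68 and -0.70. Klf6 had a log2 fold change of 0.38 (adjusted p = 0.0589) and passed under 5 of the 15 alternatives, namely without control replicate 3 (adjusted p = 0.00803), with the replicate block (0.0273), without dim genes (0.0246), after quantile normalization (0.0396) and with array weights (0.041). Ccn1 and Ccn2 are themselves induced by serum, and the part of that response in their values was not tested.

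Ccn2 and Ankrd1 are also expressed by stromal, vascular and muscle cells, so markers of cells other than the ureteric bud stand beside them. No muscle list was among these. The smooth muscle genes Acta2 and Cnn1 fell, as given above with the SRF targets. On the same list Actg2 and Tagln did not pass, with log2 fold changes of -0.34 and -0.09 (limma, adjusted p = 0.095 and 0.314). Of 47 markers of the cell types that were listed, 4 rose, 3 fell and 40 did not pass, and their median was -0.07 on the log2 scale. Shares of 8.51% higher and 6.38% lower stand against 11.8% and 13.9% of all genes, and the same background applies to the counts for each cell type that follow. That background is not matched for brightness. Most of these markers were dim, 10 of 47 being brighter than the array-wide median, and dimmer genes passed less often. The lower shares therefore do not show that the markers changed less than genes of similar brightness. In the stroma 0 of 12 passed, as given above. In the endothelium Erg rose by 0.47 on the log2 scale and 9 of 10 did not pass, whereas 6 were lower without control replicate 3, with summed signals of 1106 to 1287 in mutant and 1143 to 1483 in control cells. In blood 1 of 6 fell, Ptprc, which was lost without mutant replicate 1 or 3 (adjusted p = 0.0591 and 0.0558), with summed signals of 403 to 429 in mutant and 401 to 480 in control cells. Of 9 cap mesenchyme markers, Six2 rose (log2 fold change 3.29) and Osr1 fell (-0.67; not called without mutant replicate 2 or control replicate 1, adjusted p = 0.0695 and 0.063), and the summed signal was 2315 to 2435 in mutant and 1260 to 1309 in control cells. Six2 alone carries that difference, since the sum of the other 8 was 1046 to 1078 in mutant and 1104 to 1182 in control cells. Of 10 early nephron markers, Lrp2 and Jag1 rose by 1.05 and 0.21 and Slc34a1 fell by 0.69, with summed signals of 4086 to 4368 in mutant and 3738 to 4031 in control cells. Jag1 and Pou3f3, with means of 10.91 and 10.10, were the brightest of the 10 and weigh most in that sum. The ureteric bud markers themselves fell in 8 of 15 and rose in 1, Wnt9b (log2 fold change 1.42), or 53.3% lower and 6.67% higher against 20.3% and 19.3% of genes above the median brightness, with falls of 0.60 for Wnt11, 0.40 for Hoxb7, 0.35 for Ret and 0.31 for Gata3. The calls of Jag1 and Slc34a1 were lost when single arrays were left out (Jag1 without any but control replicate 1, adjusted p = 0.0676 to 0.12; Slc34a1 without mutant replicate 1 or 2 or control replicate 2, 0.0552 to 0.0655). The ureteric markers' summed signal was 46720 to 48060 in mutant and 52750 to 53720 in control cells. RMA values have no 0, so no marker can be called absent, and the part of these shifts in the pathway genes was not tested.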

How the data were processed

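Per the labels' protocols, RNA of sorted ureteric bud cells was labelled for Affymetrix GeneChip arrays. The authors deposited log2 expression values, 1 for each probe set on each array. The submitters' processing notes name RMA and affy, while their versions, the build and filters are not given in the sources used. RMA forces the arrays to a common distribution, so a shift of most transcripts would be removed. Of 23309 probe sets, 20728 had 1 symbol in the platform annotation, leaving 19296 genes, of which 19255 matched the RefSeq table (GRCm38.p6) by gene ID with 0 symbols changed. A linear model with genotype alone was fitted to all genes with limma 3.58.1 (R 4.3.3; lmFit, then eBayes), with two-sided p-values, Benjamini-Hochberg adjustment across the 19296 genes and a threshold of 0.05. No intensity filter was used. The fit was also run on simulated arrays, with independent noise for each gene and far fewer changed genes than were called here. That run therefore does not vouch for the calls in these data. Paralog ratios were tested by exact permutation. No 2 arrays shared more than 22 identical values. No batch was given, and the number of arrays limits precision.

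The members and gene lists were chosen with earlier results of these data known, from general knowledge. Named were the members, Dicer1, up to 4 genes of each list past the threshold in each direction by smallest p (2 where none passed), and the 5 genes nearest to Ccn2. Named after their values were seen were Sav1, Mob1a, Mob1b, Stk4, Taok1, Wwc1, Wwc2, Frmd6, Map4k4, Map4k5, Tnik, Amot, Amotl1, Ptpn14, Ajuba, Taok2, Taok3, Stk38l, Limd1, Wtip, F3, Ccdc80, Tgfb2, Thbs1, Myof and Klf6. Same-numbered mutant and control arrays did not deviate together (correlations of deviations from -0.22 to -0.10), so the replicate number was used as a block only as an alternative. Further alternatives were leaving out each array, quantile normalization, centring arrays on their medians, removing dim genes (both group means below the median of all probe sets), testing every probe set or the mean over a gene's probe sets, array weights, robust eBayes with a variance trend, and a threshold of 0.01. Figures were drawn with matplotlib 3.10.9.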

Additional observations from a re-analysis of the deposited data

How the results depend on the processing

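The rises of Ankrd1, Ccn2 and Lats2 passed under each of the 15 alternatives run. Ankrd1 stayed in the fit without dim genes only through its mutant mean of 7.68, since its control mean of 6.12 lay below the cut. That alternative therefore adds nothing for Ankrd1. The call of Lats1 was lost with the replicate number as a block (adjusted p = 0.0665), at a threshold of 0.01, and without any 1 array other than control replicate 3. The number of the 10 genes called higher was 3 or 4 throughout. The number called lower was 0, and 1 (Yap1) when dim genes were left out and with a variance trend and robust eBayes. With 1 array left out it stayed at 0.

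Among other Hippo regulators, 13 to 15 were higher and 1 or 2 lower with 1 array left out, against 15 and 2 with all 6. The block and the threshold of 0.01 each gave 1 lower. Among other YAP targets, 8 to 12 were higher and 1 or 2 lower with 1 array left out, median centring gave 1 lower, and the threshold of 0.01 gave 7 higher and 1 lower. Over all genes, 1635 to 2157 were higher and 1764 to 2973 lower with 1 array left out, the lowest count of lower genes being without mutant replicate 1, and 1367 higher and 1423 lower passed at 0.01.

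Genes near 0 changed sign. With 1 array left out, Wwtr1 ranged from -0.0095 (without mutant replicate 2) to 0.0686, and Amotl2 from -0.0725 (without control replicate 2) to 0.108. Wwtr1 was -0.0009 without control replicate 2. Tead2 ranged from -0.0729 to 0.0047 (without mutant replicate 3), and was 0.0027 after median centring. Taok2 ranged from -0.0265 to 0.0257 with 1 array left out (-0.0103 without mutant replicate 2) and was -0.0322 after quantile normalization. Limd1 ranged from -0.0704 to 0.0082 (without control replicate 3) with 1 array left out. None of these passed. Paralog shifts kept their direction under the alternatives run for them. The median log2 fold change of all genes was -0.05, and -0.02 after quantile normalization or median centring. Same-numbered arrays share only a number, so a call lost under the block is not a weaker effect.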
